A study of Homo sapiens with 8 samples.

Results

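The libraries described here are those of RPL9 siRNA and of the negative control siRNA (NC) in 2 established human colorectal cancer lines, HCT116 and HT29. They are 4 of the 8 libraries of the study, chosen by their labels: HCT116 RPL9 siRNA and HT29 RPL9 siRNA, each set against the NC siRNA library of the same line. The other 4 libraries come from RPL17 siRNA and RPL27 siRNA in the same 2 lines. All cells were grown in RPMI medium, received siRNA at 15 nM with Lipofectamine 2000, and gave total RNA 48 h later. There is 1 library per line and siRNA, so the 2 lines are the only replicates of an siRNA. The p values rest on how far differences between siRNAs disagree between the 2 lines, and not on the spread between cultures of 1 line. No untransfected cells and no second siRNA against RPL9 were analysed here, so an effect of the RPL9 siRNA on other messages cannot be told apart from an effect of the loss of RPL9.

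RPL9 is a protein of the large ribosomal subunit. When assembly of that subunit is disturbed, ribosomal proteins that find no place in a ribosome, chiefly RPL5 and RPL11, can bind MDM2, the ubiquitin ligase that keeps p53 low, and p53 then turns on genes of cell cycle arrest and cell death. HCT116 is known for wild-type p53 and HT29 for a mutant form. Translation is also tied to amino acid supply through ATF4, a transcription factor that drives amino acid synthesis, amino acid uptake and the charging of tRNA.

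The values are RPKM, read counts scaled by gene length and library size, for 19124 genes. They were compared as log2(RPKM + 1), so a difference of 1 is a doubling for genes well above 1 RPKM and less than that for low genes. The genes tested were the 14233 with a mean of 1 RPKM or more over the 4 libraries. Between 13.1% and 15.7% of genes were listed at 0 in a library, and read depth is not given. The values behave like RPKMs summed over exons, so a level is compared across libraries but never across genes. The HT29 NC library stood apart from the rest. For each library the difference of log2(RPKM + 1) from the mean of the other 7 was set against transcript length. The rank correlation was -0.54 for HT29 NC and 0.12 to 0.23 for the other 7 libraries, whose reference mean includes HT29 NC. Median differences between RPL9 siRNA and NC in HT29 ran from -0.67 in the shortest of 10 equal bins of genes by transcript length to 1.25 in the longest, and in HCT116 they ran from 0.10 to -0.03. After each library's trend with length had been removed, the bins of HT29 lay between 0.11 and 0.26. Every fit below was therefore made on the values as deposited and again after that removal, which is called length-adjusted, on the 13698 genes with a length.

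**Figure D1:**
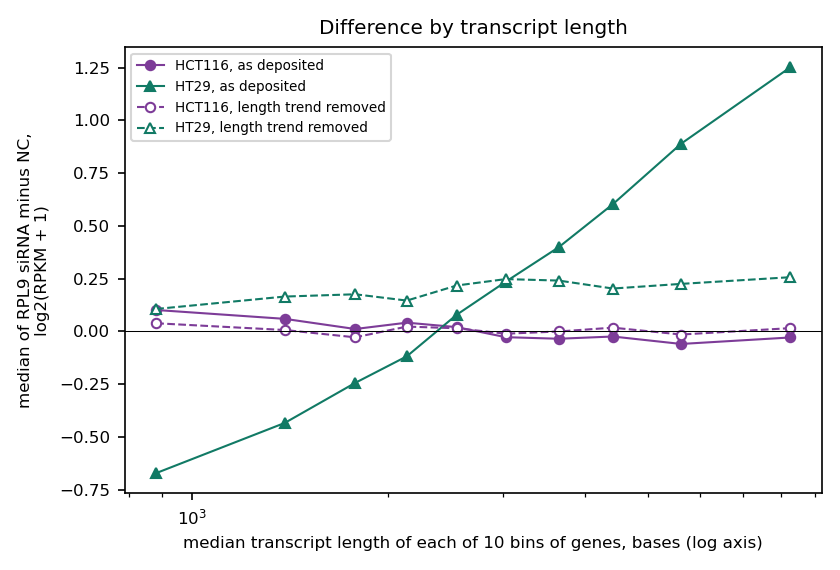
Median difference between RPL9 siRNA and NC (log2(RPKM + 1), y axis) in each of 10 equal bins of genes by transcript length (x axis, log scale, bases), for HCT116 (circles) and HT29 (triangles), as deposited (filled) and length-adjusted (open). The deposited HT29 medians climb from -0.67 in the shortest bin to 1.25 in the longest, and the length-adjusted ones stay between 0.11 and 0.26.

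The targeted gene was low under its siRNA in both lines. RPL9 stood at 5560 RPKM under RPL9 siRNA against 17432 RPKM under NC in HCT116, and at 5245 RPKM under RPL9 siRNA against 35729 RPKM under NC in HT29. Both RPL9 siRNA libraries lay below both NC libraries. The difference was -1.65 in HCT116 and -2.77 in HT29, with a mean of -2.21 (SE 0.31; limma adjusted p = 0.098). The length-adjusted differences were closer to each other, -1.71 and -1.95, with an adjusted p of 0.0034. Against the mean of the RPL17 and RPL27 siRNA libraries, which does not use NC, RPL9 was lower by -1.75 (limma adjusted p = 3.1e-05). Processed pseudogenes can share reads with ribosomal protein genes, which leaves their absolute levels uncertain.

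Across the whole table the limma fit called 1 gene higher under RPL9 siRNA (0.00703% of those tested) and 0 lower (0%), while 2924 genes had an unadjusted p under 0.05. The length-adjusted fit called 233 genes higher (1.7%) and 160 lower (1.17%). A size rule was used beside the tests: a difference of at least 1 in the same direction in both lines was met by 348 genes upward (2.45%) and 428 downward (3.01%), and 276 (2.01%) and 330 (2.41%) met it both as deposited and length-adjusted, which is called the strict rule. Of the genes that met the strict rule, 127 upward and 76 downward also passed the length-adjusted test. The median over all genes was 0.0076 in HCT116 and 0.17 in HT29. With each library centred on its median gene, 245 genes met the size rule upward and 555 downward. In HCT116 alone, without the HT29 NC library, 931 genes stood higher by 1 or more and 1200 lower, and in HT29 alone 3266 and 1760.

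**Figure D2:**
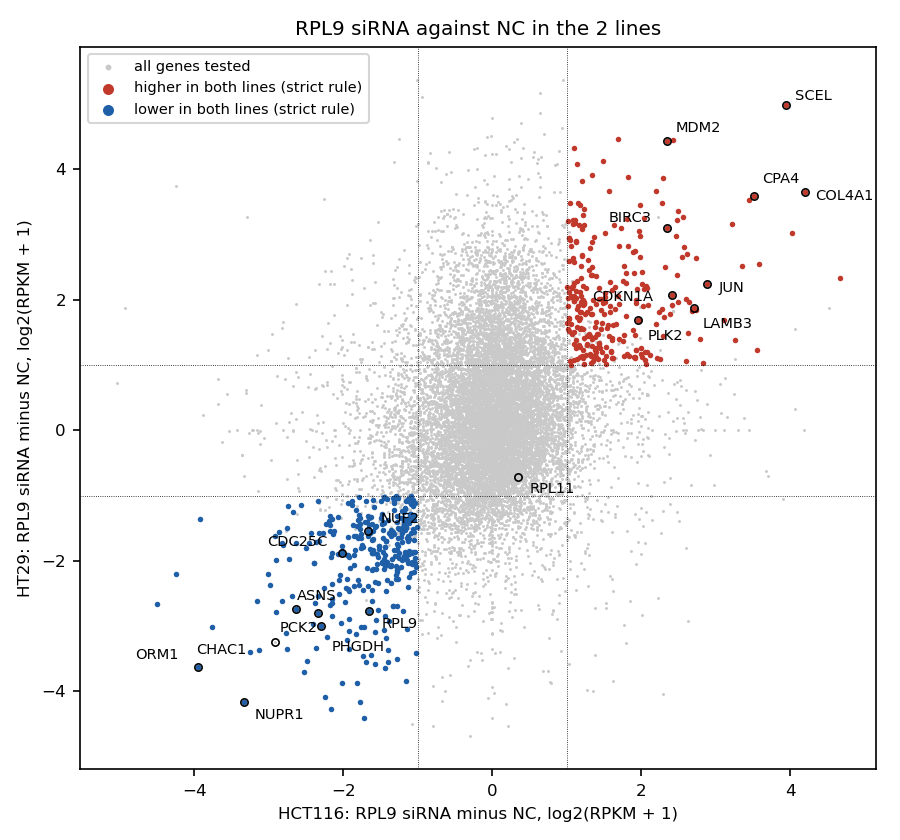
Difference between RPL9 siRNA and NC (log2(RPKM + 1)) in HCT116 (x axis) and HT29 (y axis), 1 point per gene tested, with genes that met the strict rule in red (276 higher) and blue (330 lower) and dotted lines at a difference of 1 either way. CPA4, SCEL and COL4A1 lie at the upper right and NUPR1 and ORM1 at the lower left, CHAC1 has no transcript length and so stays grey, and RPL11 lies on opposite sides of 0 in the 2 lines.

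The single call as deposited was CPA4, a secreted carboxypeptidase. CPA4 had 2944 RPKM under RPL9 siRNA against 258 RPKM under NC in HCT116, and 2270 RPKM under RPL9 siRNA against 187 RPKM under NC in HT29. The groups did not overlap, and each RPL9 siRNA library was far above both NC libraries. CPA4 rose by 3.51 in HCT116 and 3.59 in HT29, with a mean of 3.55 (SE 0.17; limma adjusted p = 0.011; length-adjusted 0.0014). The call was made in 11 of 20 other settings, over which the difference ran from 3.35 to 3.63 and the adjusted p from 7.07e-05 to 0.624.

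Targets of p53 stood mostly higher under RPL9 siRNA in both lines. Of 44 such genes tested, in 4 lists, 36 stood higher in both lines, against 31.6% of all genes tested, 14 met the size rule upward and 0 downward, and 16 passed the length-adjusted limma test upward and 0 downward. The list medians were 0.93 in HCT116 and 0.82 in HT29 for genes of cell cycle arrest, 1.08 and 0.93 for genes of cell death, 0.83 and 0.97 for genes of repair and metabolism, and 0.30 and 1.78 for feedback regulators, against 0.0076 and 0.17 over all genes. CDKN1A, which encodes the cyclin-dependent kinase inhibitor p21, had 1195 RPKM under RPL9 siRNA against 225 RPKM under NC in HCT116, and 834 RPKM under RPL9 siRNA against 198 RPKM under NC in HT29. Both RPL9 siRNA libraries lay above both NC libraries, and CDKN1A stood higher by 2.41 and 2.07 (limma adjusted p = 0.059; length-adjusted 0.0057). PLK2, a kinase induced by p53, had 2324 RPKM under RPL9 siRNA against 601 RPKM under NC in HCT116, and 3028 RPKM under RPL9 siRNA against 935 RPKM under NC in HT29 (length-adjusted limma adjusted p = 0.0057). For BTG2, an antiproliferative gene, the levels were 99.0 RPKM under RPL9 siRNA against 19.7 RPKM under NC in HCT116, and 104 RPKM under RPL9 siRNA against 28.1 RPKM under NC in HT29 (length-adjusted limma adjusted p = 0.035). Neither gene's groups overlapped. ZMAT3, an RNA-binding growth suppressor, was 1 more gene of arrest to meet the strict rule, at 1.10 in HCT116 and 4.32 in HT29, and it passed neither test (length-adjusted limma adjusted p = 0.086).

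MDM2 had 5026 RPKM under RPL9 siRNA against 986 RPKM under NC in HCT116, and 3646 RPKM under RPL9 siRNA against 168 RPKM under NC in HT29. Both RPL9 siRNA libraries were high, and the lines lay farther apart in the NC libraries. The difference was 2.35 in HCT116 and 4.44 in HT29 as deposited, and 2.38 and 3.22 length-adjusted (limma adjusted p = 0.10, and 0.021 length-adjusted). Among the other feedback regulators, PPM1D, a phosphatase that acts on p53, stood at 0.52 and 1.41 and passed no test.

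In the cell death list 6 of 14 genes met the size rule, and 6 passed the length-adjusted test. FAS, a death receptor, had 369 RPKM under RPL9 siRNA against 118 RPKM under NC in HCT116, and 262 RPKM under RPL9 siRNA against 56.6 RPKM under NC in HT29. TNFRSF10B, a receptor for the death ligand TRAIL, had 1694 RPKM under RPL9 siRNA against 777 RPKM under NC in HCT116, and 1291 RPKM under RPL9 siRNA against 317 RPKM under NC in HT29. Both receptors were higher in each RPL9 siRNA library than in either NC library and passed the length-adjusted limma test (adjusted p = 0.037 for FAS and 0.038 for TNFRSF10B). TNFRSF10C, a decoy receptor for TRAIL, stood higher by 1.66 and 1.63, with a length-adjusted limma adjusted p of 0.052. The apoptosis-enhancing nuclease AEN stood higher by 1.27 and 1.30 (length-adjusted limma adjusted p = 0.040). Among genes of repair and metabolism, C12orf5, now named TIGAR, a regulator of glycolysis, stood higher by 1.34 and 1.40 (length-adjusted limma adjusted p = 0.035), and the helicase gene ASCC3 by 1.09 and 2.26 (length-adjusted limma adjusted p = 0.035). KIAA0247, now SUSD6, met the strict rule at 2.41 and 1.92 and had a length-adjusted limma adjusted p of 0.051.

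**Figure D3:**
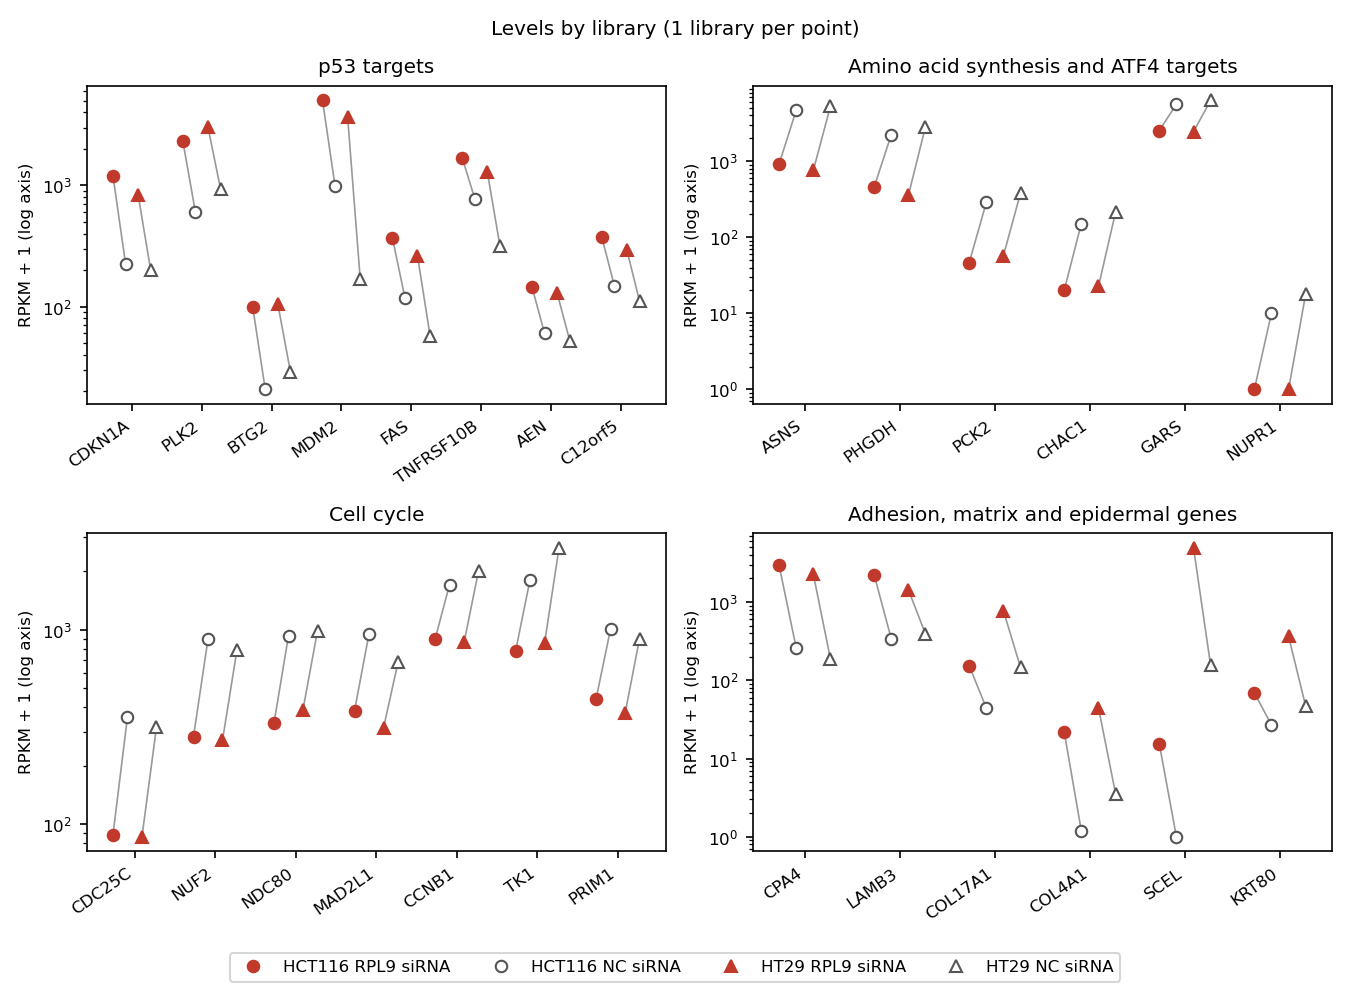
RPKM + 1 (log axis) of genes from 4 groups in the RPL9 siRNA (red) and NC (open) libraries of HCT116 (circles) and HT29 (triangles), 1 library per point, with lines joining the 2 libraries of a cell line. The p53 targets and the adhesion, matrix and epidermal genes stand higher under RPL9 siRNA in both lines, and the amino acid and cell cycle genes stand lower; for SCEL the HCT116 NC library is listed at 0, and for NUPR1 both RPL9 siRNA libraries are.

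Genes of serine and asparagine synthesis stood well below NC under RPL9 siRNA. Of 30 ATF4 targets tested, 7 met the size rule downward and 2 upward, and of the 29 with a length 8 passed the length-adjusted limma test downward and 2 upward. The list median was -0.36 in HCT116 and -0.55 in HT29 (-0.28 length-adjusted). ASNS, asparagine synthetase, had 917 RPKM under RPL9 siRNA against 4661 RPKM under NC in HCT116, and 756 RPKM under RPL9 siRNA against 5254 RPKM under NC in HT29. PHGDH, the first enzyme of serine synthesis, had 454 RPKM under RPL9 siRNA against 2231 RPKM under NC in HCT116, and 353 RPKM under RPL9 siRNA against 2834 RPKM under NC in HT29. For both genes each RPL9 siRNA library lay far below each NC library. ASNS stood at -2.34 in HCT116 and -2.79 in HT29 (limma adjusted p = 0.066; length-adjusted 0.0057), and PHGDH at -2.29 and -3.0 (limma adjusted p = 0.066; length-adjusted 0.0085).

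PCK2, the mitochondrial form of phosphoenolpyruvate carboxykinase, had 45.4 RPKM under RPL9 siRNA against 286 RPKM under NC in HCT116, and 56.1 RPKM under RPL9 siRNA against 380 RPKM under NC in HT29 (length-adjusted limma adjusted p = 0.021). CHAC1, which degrades glutathione, had 19.2 RPKM under RPL9 siRNA against 151 RPKM under NC in HCT116, and 21.6 RPKM under RPL9 siRNA against 212 RPKM under NC in HT29 (limma adjusted p = 0.098). NUPR1, a stress-induced nuclear protein gene, was listed at 0 in both RPL9 siRNA libraries, against 9.03 RPKM in the NC library of HCT116 and 16.9 RPKM in that of HT29. The groups of PCK2 and CHAC1 did not overlap. NUPR1 entered the test through its NC values alone, so its separation adds nothing. It is counted above among the genes that met the size rule and passed the length-adjusted test downward. PSAT1, GPT2, MTHFD2 and SHMT2, of serine, alanine and one-carbon metabolism, also passed the length-adjusted test downward and were chosen after their values were seen, since they lie outside the naming rule. The 2 genes of the list that passed it upward were ATF3 and PPP1R15A, which are induced by many stresses besides loss of amino acids. ATF3, a transcription factor, had 163 RPKM under RPL9 siRNA against 67.9 RPKM under NC in HCT116, and 179 RPKM under RPL9 siRNA against 51.5 RPKM under NC in HT29 (length-adjusted limma adjusted p = 0.045). PPP1R15A, which helps to restart translation after stress and was likewise chosen after its values were seen, stood at 2.07 and 1.19.

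Promoter sequences of ASNS and CHAC1 are shown because both genes stood low together and ASNS holds the known element through which ATF4 acts. They are RefSeq sequences of build GRCh38.p14, from 250 bases before to 50 bases after the annotated start, and the deposited tables themselves carry no coordinates. The ASNS window lies at chr7:97872359-97872658 on the minus strand, with TGATGAAAC in capitals, and the CHAC1 window at chr15:40953221-40953520 on the plus strand, with TTGCATCA in capitals.
ASNS: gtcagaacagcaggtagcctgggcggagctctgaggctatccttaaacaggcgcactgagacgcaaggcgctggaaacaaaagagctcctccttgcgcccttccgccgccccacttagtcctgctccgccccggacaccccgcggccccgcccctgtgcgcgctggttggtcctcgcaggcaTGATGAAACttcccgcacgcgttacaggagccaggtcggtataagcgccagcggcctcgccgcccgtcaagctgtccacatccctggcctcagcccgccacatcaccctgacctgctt
CHAC1: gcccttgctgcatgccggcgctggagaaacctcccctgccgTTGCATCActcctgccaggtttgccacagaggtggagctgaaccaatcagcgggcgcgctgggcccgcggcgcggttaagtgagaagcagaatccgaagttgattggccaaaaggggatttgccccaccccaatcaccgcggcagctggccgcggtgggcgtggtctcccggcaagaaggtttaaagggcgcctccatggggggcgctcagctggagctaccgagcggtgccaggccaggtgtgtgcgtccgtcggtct
Counted from the annotated start with no base numbered 0, the ASNS match begins at -68 and the CHAC1 match at -209. Both strands were searched in the 25 promoters of the ATF4 list that were found in the table. TGATGAAAC (reverse complement GTTTCATCA) was present in 1 of 25, against 0.22% of all 27305 promoters and 0.0889% of the 11248 promoters of tested genes. That 1 was ASNS, whose own known element was searched for, so the count was set in advance and shows no enrichment. TTGCATCA (reverse complement TGATGCAA) was present in 2 of 25, CHAC1 and MTHFD1L, against 0.923% of all promoters and 0.498% of those of tested genes. A match describes these letters and not a bound site.

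Some amino acid transporters and tRNA synthetases stood lower as well. Of 13 transporters 2 met the size rule downward and 0 passed the length-adjusted limma test, with medians of -0.57 in HCT116 and 0.18 in HT29 (-0.20 length-adjusted). Both lines stood lower for 5 of the 13 and higher for 3, against 24.6% and 31.6% of all genes tested. SLC43A1, a transporter of large neutral amino acids, had 16.5 RPKM under RPL9 siRNA against 123 RPKM under NC in HCT116, and 78.6 RPKM under RPL9 siRNA against 263 RPKM under NC in HT29 (length-adjusted limma adjusted p = 0.054). SLC1A4 stood at -2.31 and -1.21, SLC3A2 at -0.77 and -1.23 and SLC1A5 at -0.55 and -0.63. The 3 that stood higher, named after their values were seen, were SLC38A2, at 0.49 and 2.21, SLC7A6, at 0.74 and 2.42, and SLC38A5, at 0.86 and 0.18. SLC7A11, the cystine transporter, also named after its values were seen, lay on opposite sides of 0, at -1.90 in HCT116 and 2.46 in HT29. Among 20 cytosolic aminoacyl-tRNA synthetases, which load tRNA with amino acids, 1 met the size rule downward and, of the 19 with a length, 5 passed the length-adjusted limma test downward and 0 upward, with medians of -0.37 and -0.26. GARS, now GARS1, the enzyme for glycine, had 2524 RPKM under RPL9 siRNA against 5616 RPKM under NC in HCT116, and 2444 RPKM under RPL9 siRNA against 6290 RPKM under NC in HT29 (length-adjusted limma adjusted p = 0.021). CARS, AARS and MARS, the enzymes for cysteine, alanine and methionine, stood at -0.76 and -1.18, -0.77 and -0.65, and -0.59 and -0.74, and each passed the length-adjusted test.

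Chaperones of the endoplasmic reticulum stood lower, with medians of -0.59 in HCT116 and -0.53 in HT29 over 19 genes, of which 3 passed the length-adjusted limma test downward and 0 upward. HSP90B1, the chaperone GRP94, had 9722 RPKM under RPL9 siRNA against 15572 RPKM under NC in HCT116, and 8912 RPKM under RPL9 siRNA against 17567 RPKM under NC in HT29. HSPA5, the chaperone BiP, had 2603 RPKM under RPL9 siRNA against 4009 RPKM under NC in HCT116, and 2389 RPKM under RPL9 siRNA against 3691 RPKM under NC in HT29. The 2 groups did not overlap for either gene (length-adjusted limma adjusted p = 0.035 for HSP90B1 and 0.046 for HSPA5). HERPUD1, part of the degradation machinery of that organelle, stood at -1.16 and -1.48 (length-adjusted limma adjusted p = 0.051). Of 12 heat shock genes with a length, 1 passed the length-adjusted limma test upward, HSF1, the regulator of that response, at 0.92 and 0.60, and 1 downward, the chaperone gene HSP90AA1 at -0.71 and -0.60, which was named after its values were seen.

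Genes of mitosis stood lower under RPL9 siRNA, with medians of -1.11 in HCT116 and -0.68 in HT29 over 34 genes. Of these 11 met the size rule downward and 0 upward, and of the 33 with a length 13 passed the length-adjusted limma test downward and 0 upward. CDC25C, the phosphatase that opens entry into mitosis, had 87.5 RPKM under RPL9 siRNA against 355 RPKM under NC in HCT116, and 85.2 RPKM under RPL9 siRNA against 315 RPKM under NC in HT29. NUF2, a subunit of the kinetochore, had 281 RPKM under RPL9 siRNA against 895 RPKM under NC in HCT116, and 269 RPKM under RPL9 siRNA against 788 RPKM under NC in HT29. Its partner NDC80 had 331 RPKM under RPL9 siRNA against 934 RPKM under NC in HCT116, and 388 RPKM under RPL9 siRNA against 988 RPKM under NC in HT29. In all 3 genes the RPL9 siRNA libraries were near each other and below both NC libraries, and the length-adjusted limma adjusted p was 0.035, 0.038 and 0.036. MAD2L1, of the spindle checkpoint, stood at -1.32 and -1.12 (length-adjusted limma adjusted p = 0.036), and CCNB1, cyclin B1, at -0.94 and -1.22 (length-adjusted limma adjusted p = 0.036). The other genes of the list that passed were AURKB, CENPF, DLGAP5, KIF20A, KIF2C, PLK1, PTTG1 and TTK, named after their values were seen.

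Genes of DNA replication stood lower by less. Over 35 genes the medians were -0.78 in HCT116 and -0.55 in HT29, 2 met the size rule downward, and of the 34 with a length 8 passed the length-adjusted limma test downward and 0 upward. TK1, thymidine kinase, had 776 RPKM under RPL9 siRNA against 1814 RPKM under NC in HCT116, and 854 RPKM under RPL9 siRNA against 2645 RPKM under NC in HT29 (length-adjusted limma adjusted p = 0.036). PRIM1, a primase subunit, stood at -1.19 and -1.28 (length-adjusted limma adjusted p = 0.051), MCM5, of the replicative helicase, at -0.92 and -1.40 (0.047), and CHAF1A, a histone chaperone, at -0.99 and -0.90 (0.046). PCNA, the sliding clamp of the polymerases, stood at -0.39 and -0.81 and passed no test.

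Promoters of 3 mitotic genes are shown because many genes of this class share 2 short elements, the CHR, spelled TTTGAA, and the CCAAT box. They come from the same RefSeq table and build, all on the plus strand, at chr1:163321704-163322003 (NUF2), chr18:2571307-2571606 (NDC80) and chr5:69166900-69167199 (CCNB1), with TTTGAA or its reverse complement TTCAAA in capitals for NUF2 and NDC80, and CCAAT in capitals for CCNB1.
NUF2: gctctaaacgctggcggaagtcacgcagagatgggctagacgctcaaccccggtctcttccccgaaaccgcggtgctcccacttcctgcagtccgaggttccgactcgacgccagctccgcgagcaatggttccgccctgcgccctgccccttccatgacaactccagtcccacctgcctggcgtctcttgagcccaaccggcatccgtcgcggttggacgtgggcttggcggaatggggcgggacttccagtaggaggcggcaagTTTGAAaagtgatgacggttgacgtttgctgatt
NDC80: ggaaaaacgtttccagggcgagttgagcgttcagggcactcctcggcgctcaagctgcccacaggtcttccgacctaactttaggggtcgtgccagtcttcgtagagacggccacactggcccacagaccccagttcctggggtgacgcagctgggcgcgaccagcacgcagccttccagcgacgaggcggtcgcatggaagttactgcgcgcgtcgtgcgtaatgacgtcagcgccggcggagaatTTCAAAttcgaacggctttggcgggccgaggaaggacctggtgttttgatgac
CCNB1: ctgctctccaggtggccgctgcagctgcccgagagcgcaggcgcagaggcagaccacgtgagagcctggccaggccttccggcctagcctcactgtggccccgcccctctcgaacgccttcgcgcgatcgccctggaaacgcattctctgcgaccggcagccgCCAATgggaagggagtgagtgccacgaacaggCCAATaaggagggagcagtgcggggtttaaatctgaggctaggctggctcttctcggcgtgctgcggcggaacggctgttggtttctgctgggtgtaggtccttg
In the same count, with no base numbered 0, the match begins at 17 in NUF2 and at -3 in NDC80. The 2 matches of CCNB1 begin at -87 and -55. On either strand, TTTGAA was present in 16 of the 27 mitotic promoters found in the table (59.3%), against 15.4% of all promoters and 9.89% of the 11248 promoters of tested genes. CCAAT (reverse complement ATTGG) was present in 20 of 27 (74.1%), against 35.7% of all promoters and 36.4% of those of tested genes. The counts cover the whole list and not only its members that stood low. Both elements were searched because genes of this class are known to share them. The high shares were thus in part set in advance and are no result of these libraries.

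Some genes of the basement membrane stood higher and others lower. Of 21 collagens and basement membrane genes 5 met the size rule upward and 1 downward, and 4 passed the length-adjusted limma test upward and 2 downward, with medians of 0.39 in HCT116 and 0.72 in HT29. The length-adjusted median in HT29 was 0.035 against 0.20 for all genes. LAMB3, a laminin chain of the epithelial basement membrane, had 2227 RPKM under RPL9 siRNA against 339 RPKM under NC in HCT116, and 1433 RPKM under RPL9 siRNA against 389 RPKM under NC in HT29. Both RPL9 siRNA libraries lay above both NC libraries (length-adjusted limma adjusted p = 0.038). LAMA3, another laminin chain, chosen after its values were seen, stood higher by 1.06 and 2.82 and passed as well. COL17A1, a collagen of the same attachment complex, stood higher by 1.79 and 2.41 (length-adjusted limma adjusted p = 0.058). COL4A1, a basement membrane collagen, had 20.8 RPKM under RPL9 siRNA against 0.186 RPKM under NC in HCT116, and 43.6 RPKM under RPL9 siRNA against 2.56 RPKM under NC in HT29 (length-adjusted limma adjusted p = 0.038). The 2 genes that passed downward were COL6A2, at -0.68 and -0.72, and COL6A3, at -2.06 and -1.89. Both are chains of collagen VI, and both were named after their values were seen. COL6A3 had 0.077 RPKM under RPL9 siRNA in HCT116 and was listed at 0 under RPL9 siRNA in HT29. It therefore entered the test through its NC values alone. It is also the 1 gene counted above as meeting the size rule downward.

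Of 30 genes listed for the cornified envelope and epidermis, 18 reached the mean of 1 RPKM needed for the test. Those below it included FLG, IVL, SPRR1A, SPRR3, LCE3D and KRT6A. Of the 18 tested, 8 stood higher in both lines and 2 lower, against 31.6% and 24.6% of all genes tested. CPA4, SCEL, KRT80 and SPRR1B met the size rule upward and 0 genes met it downward, and 3 passed the length-adjusted limma test upward: CPA4, SCEL and KRT80. KRT80, an epithelial keratin, had 68.1 RPKM under RPL9 siRNA against 25.8 RPKM under NC in HCT116, and 363 RPKM under RPL9 siRNA against 45.7 RPKM under NC in HT29. SCEL, sciellin, a precursor of the cornified envelope, had 14.4 RPKM under RPL9 siRNA in HCT116, where it was listed at 0 under NC, and 4926 RPKM under RPL9 siRNA against 154 RPKM under NC in HT29. In HCT116 this level was 0.293% of that in HT29 under the same siRNA. For comparison, 38 genes above 100 RPKM in HT29 NC and below 5 RPKM in HCT116 NC stood in the HCT116 RPL9 siRNA library at a median of 0.542% of their HT29 RPL9 siRNA level (0% to 12.1%), and whether reads passed between libraries was not tested. SPRR1B was listed at 0 in both NC libraries and so entered the test through its RPL9 siRNA values alone, with 1.00 RPKM in HCT116 and 5.12 RPKM in HT29 under RPL9 siRNA. Without it, 3 genes of the list met the size rule.

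Of 16 TGF-beta response and plasminogen system genes 5 met the size rule upward and 0 downward and 3 passed the length-adjusted test upward, with medians of 0.29 in HCT116 and 1.04 in HT29. CYR61, now CCN1, a matrix-associated signalling protein, stood higher by 2.25 and 1.09 (length-adjusted limma adjusted p = 0.046), and the ligand gene TGFB2 by 1.23 and 1.94 (0.082). LTBP2, a matrix protein, stood higher by 1.14 and 4.08 (length-adjusted limma adjusted p = 0.060).

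Immediate early genes had medians of 0.94 in HCT116 and 0.78 in HT29 over 18 genes, of which 6 met the size rule upward and 0 downward and 5 passed the length-adjusted limma test upward. JUN, a subunit of the transcription factor AP-1, had 22.8 RPKM under RPL9 siRNA against 2.24 RPKM under NC in HCT116, and 23.9 RPKM under RPL9 siRNA against 4.25 RPKM under NC in HT29 (length-adjusted limma adjusted p = 0.040). KLF6, a zinc finger factor, stood higher by 1.34 and 2.38 (0.038 in the same test), and DUSP5, a phosphatase of nuclear ERK, by 1.24 and 1.42 (0.036). MYC had differences of 1.25 (HCT116) and 0.35 (HT29) and passed no test (length-adjusted limma adjusted p = 0.075).

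Among 19 targets of NF-kB, with medians of 0.71 and 0.62, 2 met the size rule upward and 0 downward, and of the 18 with a length 2 passed the length-adjusted limma test upward. BIRC3, an inhibitor of apoptosis that NF-kB induces, had 223 RPKM under RPL9 siRNA against 42.9 RPKM under NC in HCT116, and 282 RPKM under RPL9 siRNA against 32.1 RPKM under NC in HT29 (length-adjusted limma adjusted p = 0.021). The other gene that passed was NFKB1, a subunit of the factor, at 0.81 and 1.10, named after its values were seen. TNFAIP3, the feedback inhibitor A20, stood higher by 1.10 and 1.5 (length-adjusted limma adjusted p = 0.085). NFKBIA, the inhibitor IkB-alpha, had 156 RPKM under RPL9 siRNA against 109 RPKM under NC in HCT116, and 190 RPKM under RPL9 siRNA against 205 RPKM under NC in HT29, so its lines lay on opposite sides of 0.

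Most ribosomal protein genes stood near or above NC in HCT116 and below it in HT29. The 47 genes of the large subunit had medians of 0.17 in HCT116 and -0.73 in HT29, and the 32 of the small subunit 0.22 and -0.87. These transcripts are short, and the length-adjusted medians in HT29 were -0.18 and -0.16. RPL5 had 12677 RPKM under RPL9 siRNA against 12853 RPKM under NC in HCT116, and 13311 RPKM under RPL9 siRNA against 22118 RPKM under NC in HT29. RPL11 had 12250 RPKM under RPL9 siRNA against 9679 RPKM under NC in HCT116, and 12860 RPKM under RPL9 siRNA against 21056 RPKM under NC in HT29. The HT29 NC library was the highest of the 4 for both genes, and the length-adjusted differences in HT29 were 0.01 for RPL5 and 0.03 for RPL11. Besides RPL9, the length-adjusted limma test called RPL3, RPL10A and RPL12 lower, at -0.48 and -1.51, -0.51 and -1.42, and -0.49 and -1.55 in HCT116 and HT29 as deposited, and RPL10 higher, whose deposited differences were 0.47 (HCT116) and -0.37 (HT29) and which was named after its values were seen. No gene of the small subunit passed either limma test.

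Ribosome biogenesis factors stood higher, with medians of 0.51 in HCT116 and 0.49 in HT29 over 40 genes. None met the size rule, and 7 passed the length-adjusted limma test upward and 0 downward. NIP7, a factor of large subunit maturation, had 539 RPKM under RPL9 siRNA against 249.3 RPKM under NC in HCT116, and 434 RPKM under RPL9 siRNA against 227 RPKM under NC in HT29 (length-adjusted limma adjusted p = 0.036). NOP2, an rRNA methyltransferase, had 1581 RPKM under RPL9 siRNA against 933 RPKM under NC in HCT116, and 1426 RPKM under RPL9 siRNA against 848 RPKM under NC in HT29 (0.038 in the same test). For both genes the 2 groups did not overlap. UTP15, of small subunit processing, stood higher by 0.78 and 0.98 and POLR1A, the catalytic subunit of RNA polymerase I, by 0.75 and 2.47, and neither passed.

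**Figure D4:**
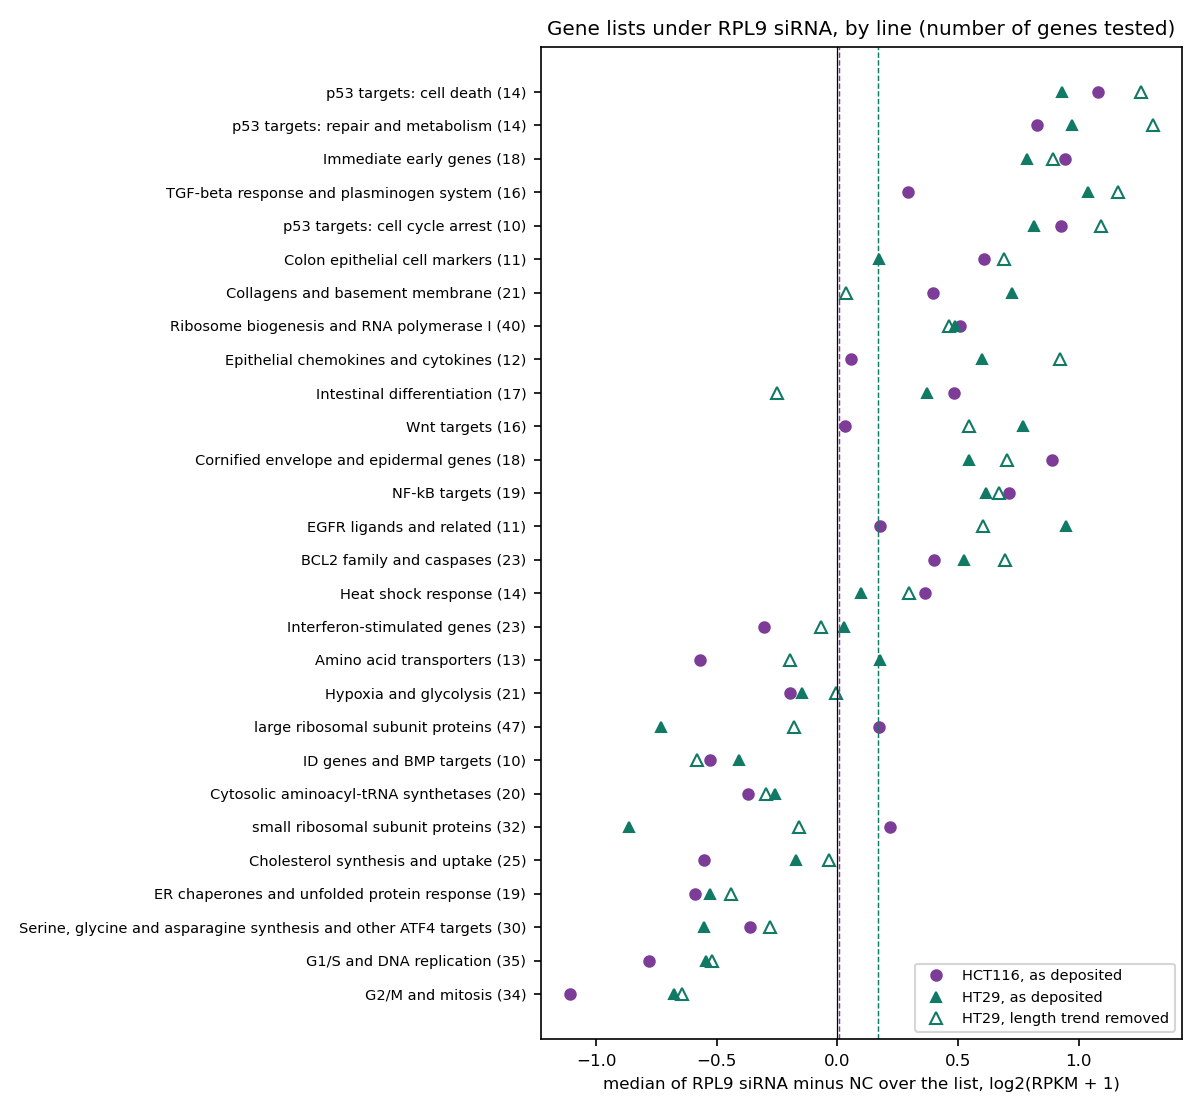
Median over each gene list (10 or more genes tested, number in parentheses) of the difference between RPL9 siRNA and NC (log2(RPKM + 1)), in HCT116 (circles), in HT29 as deposited (filled triangles) and in HT29 length-adjusted (open triangles), with dashed lines at the medians of all genes, 0.0076 and 0.17. Lists of p53 targets and immediate early genes lie to the right in both lines and the cell cycle lists to the left, and the ribosomal protein lists of HT29 move toward 0 after length adjustment.

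Of 10 ID genes and BMP targets tested, 2 met the size rule downward, and of the 8 with a length 1 passed the length-adjusted limma test, ID2, an inhibitor of differentiation factors. ID2 had 212 RPKM under RPL9 siRNA against 506 RPKM under NC in HCT116, and 230 RPKM under RPL9 siRNA against 894 RPKM under NC in HT29 (adjusted p = 0.036). ID1 stood at -1.04 and -1.87 (length-adjusted limma adjusted p = 0.056). Of 25 genes of cholesterol synthesis and uptake 1 met the size rule downward, and of the 24 with a length 2 passed the length-adjusted limma test downward, with medians of -0.55 in HCT116 and -0.17 in HT29 (-0.033 length-adjusted). EBP, a sterol isomerase, was 1 of them, at -0.97 and -1.38 (adjusted p = 0.046). ALDOC, an aldolase, was the single call among 21 hypoxia and glycolysis genes, at -1.22 and -2.09 (length-adjusted limma adjusted p = 0.041).

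Several lists had no call in either limma fit: epithelial chemokines, EGFR ligands, interferon-stimulated genes, Wnt targets, the BCL2 family with caspases, and replication-dependent histones. In these, TGFA, a ligand of the EGF receptor, stood higher by 1.18 and 1.72, and CD44, an adhesion receptor, by 0.97 and 0.97. The equal values of CD44 hold only as deposited. Length adjustment left 0.29 for CD44 in HT29, near the length-adjusted median of 0.20 for all genes there, against 1.01 in HCT116. Of 17 genes of intestinal differentiation 1 met the size rule upward and 2 downward. The 1 upward was MGAM, a brush border glucosidase, which passed the length-adjusted limma test (adjusted p = 0.040). MGAM had 15.2 RPKM under RPL9 siRNA in HCT116, where NC was listed at 0, and 7.83 RPKM under RPL9 siRNA against 0.0933 RPKM under NC in HT29. It therefore entered the test through its RPL9 siRNA values alone.

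Most markers fixed for the cell type were present in both lines. Of the 11 colon epithelial markers, 1 was listed at 0 and 3 lay below 1 RPKM in HCT116 NC. In HCT116 RPL9 siRNA 1 lay below 1 RPKM, and in the 2 HT29 libraries 0 did. The 11 colon epithelial markers summed to 31119 RPKM under RPL9 siRNA against 19418 RPKM under NC in HCT116, and to 50342 RPKM under RPL9 siRNA against 44632 RPKM under NC in HT29. Of the 11, 5 stood higher in both lines and 2 lower, against 31.6% and 24.6% of all genes tested. The length-adjusted limma test was passed upward by 3. Among the 3 were the keratins KRT8 and KRT18 (adjusted p = 0.035 and 0.037). The 2 lower in both lines were CDH17, at -0.11 and -0.81, and EPCAM, at -0.04 and -0.12, both named after their values were seen. Of 12 fibroblast markers 3 to 7 were listed at 0 in each of the 4 libraries, of 12 leukocyte markers 2 to 4, and of 8 endothelial markers 0 to 4. Leukocyte markers summed to 118 RPKM under RPL9 siRNA against 136 RPKM under NC in HCT116, and to 2750 RPKM under RPL9 siRNA against 1950 RPKM under NC in HT29. Of these markers LYZ, lysozyme, had 2692 RPKM under RPL9 siRNA against 1844 RPKM under NC in HT29. Fibroblast markers summed to 565 RPKM under RPL9 siRNA against 496 RPKM under NC in HCT116, and to 429 RPKM under RPL9 siRNA against 487 RPKM under NC in HT29, and endothelial markers to 3.69 RPKM under RPL9 siRNA against 8.50 RPKM under NC in HCT116, and 9.38 RPKM under RPL9 siRNA against 2.77 RPKM under NC in HT29. The part of such cells in the results was not tested. ACTA2, smooth muscle actin, 1 of the fibroblast markers, stood higher by 1.57 and 1.82 (length-adjusted limma adjusted p = 0.040).

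The genes highest and lowest by the strict rule, were taken from those with a mean of at least 5 RPKM. Besides those above, the highest were SCN2A, a sodium channel, CPEB2, an RNA-binding regulator of translation, DCLK1, a microtubule-associated kinase, C1orf116, CRYBB2, a crystallin, and CPNE9. DCLK1 had 60.0 RPKM under RPL9 siRNA against 4.12 RPKM under NC in HCT116, and 83.0 RPKM under RPL9 siRNA against 13.3 RPKM under NC in HT29 (length-adjusted limma adjusted p = 0.053). CPEB2 had 24.8 RPKM under RPL9 siRNA against 1.78 RPKM under NC in HCT116, and 43.1 RPKM under RPL9 siRNA against 3.91 RPKM under NC in HT29 (0.049 in the same test). CRYBB2 and CPNE9 were listed at 0 under NC in HCT116, with 5.12 and 9.23 RPKM under RPL9 siRNA there.

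Among the lowest, ORM1, an acute phase glycoprotein, was listed at 0 in both RPL9 siRNA libraries, against 14.4 RPKM under NC in HCT116 and 11.4 RPKM under NC in HT29. OLFM1, a secreted olfactomedin, had 1.34 RPKM under RPL9 siRNA against 12.5 RPKM under NC in HCT116, and 0.0899 RPKM under RPL9 siRNA against 13.1 RPKM under NC in HT29 (length-adjusted limma adjusted p = 0.043). SERPINA5, a protease inhibitor, had 1.41 RPKM under RPL9 siRNA against 11.8 RPKM under NC in HCT116, and 3.67 RPKM under RPL9 siRNA against 35.4 RPKM under NC in HT29 (0.040). In each of these genes both RPL9 siRNA libraries lay below both NC libraries. They were picked as the lowest in both lines, so this separation follows from the choice. They reached the mean of 5 RPKM only through their NC values. The others were C17orf66 (now HEATR9), FAM153B, PRAM1, LDHD, a D-lactate dehydrogenase, FXYD7, and FXYD6 with the read-through gene FXYD6-FXYD2. FXYD6 and the read-through gene overlap, so their reads cannot be told apart and their values are uncertain.

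The RPL9 siRNA libraries were also set against the mean of the RPL17 and RPL27 siRNA libraries of the same line, which asks what differed among losses of 3 large subunit proteins and uses no NC library. On 14217 genes and 6 libraries limma called 54 genes higher (0.38%) and 62 lower (0.436%). With any 1 of the 6 libraries left out the count was 6 to 23, and with the NC libraries kept in the fit it was 0, with 699 genes at an unadjusted p under 0.05. This comparison shares its RPL9 siRNA libraries with the one against NC, so the differences of the 2 are not independent.

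NAV3, a microtubule-binding neuron navigator, had 513 RPKM under RPL9 siRNA in HCT116, against 196 RPKM under RPL17 siRNA and 248 RPKM under RPL27 siRNA. In HT29 it had 269 RPKM under RPL9 siRNA, against 81.7 RPKM under RPL17 siRNA and 77.3 RPKM under RPL27 siRNA (log2 difference 1.48; limma adjusted p = 0.031). NAV3 was highest under RPL9 siRNA in each line and stood above NC as well, by 2.42 and 4.44. Other genes called higher were AGPAT4, an acyltransferase of lipid synthesis, by 1.84, C2, of the complement system, by 2.23, LMF1, a lipase maturation factor, by 1.32 and ATF3 by 1.33. RPL27 was called higher by 1.64, but it is the target of 1 of the siRNAs it was set against. It was also lower under RPL17 siRNA than under RPL9 siRNA. In HCT116 it had 4723 RPKM under RPL17 siRNA against 9280 RPKM under RPL9 siRNA, and in HT29 4754 RPKM against 10530 RPKM. CPA4 was higher by 1.29 (limma adjusted p = 0.0037), BIRC3 by 1.14 (0.040), LAMB3 by 0.83 (0.019) and MDM2 by 0.44 (0.029). BIRC3 did not stand above both other siRNAs in each line. In HCT116 it had 223 RPKM under RPL9 siRNA, against 251 RPKM under RPL17 siRNA and 57.5 RPKM under RPL27 siRNA. The HT29 levels were 282 RPKM under RPL9 siRNA, 231 RPKM under RPL17 siRNA and 49.0 RPKM under RPL27 siRNA.

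FSTL1, a secreted follistatin-like protein, had 85.4 RPKM under RPL9 siRNA in HCT116, against 182 RPKM under RPL17 siRNA and 219 RPKM under RPL27 siRNA. In HT29 it had 35.9 RPKM under RPL9 siRNA, against 110.5 RPKM under RPL17 siRNA and 125 RPKM under RPL27 siRNA (log2 difference -1.45; limma adjusted p = 0.029). Apart from RPL9 itself, the genes called lowest were SLC4A8, a bicarbonate transporter, by -2.45, ITGAX, an integrin chain, by -2.04, YBX2, an RNA-binding protein, by -1.86 and CYP4F3, an omega-hydroxylase, by -1.60, all at 39.6 RPKM or less in the NC libraries. Over 15 other settings the call was made in 13 for RPL9, 8 for NAV3 and 7 for FSTL1. CDKN1A, at 0.12 (limma adjusted p = 0.38), ASNS, at -0.08 (0.68), and PHGDH, at -0.21 (0.27), passed no such test. None of the 34 mitotic and 35 replication genes was called.

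**Figure D5:**
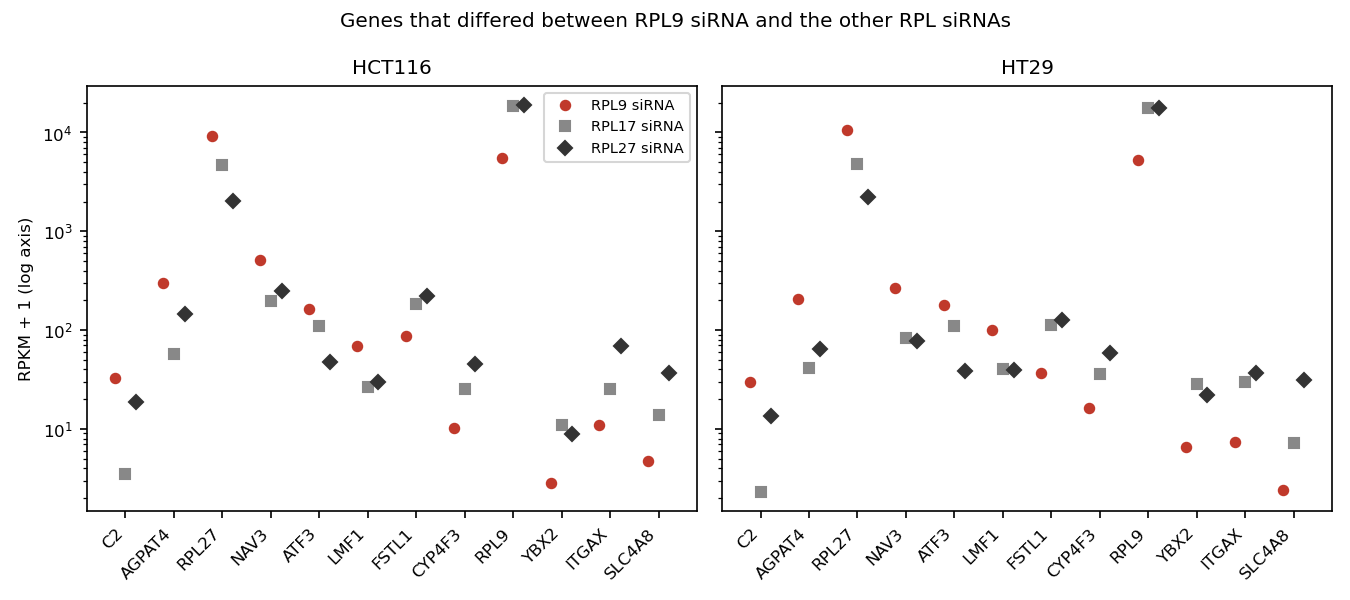
RPKM + 1 (log axis) in HCT116 (left) and HT29 (right) under RPL9 siRNA (circles), RPL17 siRNA (squares) and RPL27 siRNA (diamonds), 1 library per point, for the 6 highest and the 6 lowest genes called between RPL9 siRNA and the other RPL siRNAs. NAV3 and AGPAT4 are highest under RPL9 siRNA in both lines, FSTL1 and SLC4A8 are lowest, and RPL27 is lowest under its own siRNA.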

How the data were processed

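Per the submitters' processing notes, CASAVA 1.8.2 and TopHat2 2.0.9 were used with build hg19; how reads were assigned to genes is not stated in the sources used. The authors deposited RPKM values, 1 per gene symbol and library. From these, log2(RPKM + 1) was taken for genes with a mean of 1 RPKM or more over the RPL9 siRNA and NC libraries. limma 3.58.1 in R 4.3.3 (trend) was fitted with terms for siRNA and cell line on all 8 libraries (3 residual degrees of freedom), and on the 6 RPL siRNA libraries (2) for RPL9 siRNA against the mean of the others. P values are two-sided and adjusted by the Benjamini-Hochberg method over all genes tested, with a threshold of 0.05. Transcript lengths (18346 genes) and current names (18509) were matched by RefSeq accession, and each library's trend with length was removed with a spline of 5 degrees of freedom. Its p values take no account of the error of that spline.

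Named genes were 12 fixed genes, every gene called by limma, the 12 highest and 12 lowest by the strict rule, up to 4 genes per list, and the 6 highest and 6 lowest called against the other RPL siRNAs. Some genes are not reported here. The comparison, the lists and the named genes were chosen with earlier results of these data known. Depth is unknown, so no counting interval was computed. The labels carry no replicate numbers. The alternatives were other pseudocounts, filters and normalizations, removal of length and GC trends, other limma settings, and each library left out.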

Additional observations from a re-analysis of the deposited data

Results flagged for a closer look

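Some values lay on opposite sides of 0 in the 2 lines, and none of these differences between lines was tested, since each line holds 1 RPL9 siRNA and 1 NC library. The median difference between RPL9 siRNA and NC (log2) was 0.17 in HCT116 and -0.73 in HT29 for large subunit ribosomal proteins, and 0.22 and -0.87 for small subunit ones. It was -0.57 in HCT116 and 0.18 in HT29 for amino acid transporters, and -0.30 and 0.029 for interferon-stimulated genes. RPL11 had differences of 0.34 (HCT116) and -0.71 (HT29), and NFKBIA of 0.51 and -0.11. The HT29 values rest on the NC library with the length trend. After length adjustment the HT29 medians were -0.18 and -0.16 for the ribosomal protein lists, -0.20 for the transporters and -0.069 for the interferon-stimulated genes, and RPL11 stood at 0.03 and NFKBIA at 0.41 in HT29.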

How the results depend on the processing

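Against NC, limma called 2 genes with no filter on low values, 4 with a mean of 5 RPKM or more, 10 after quantile normalization (4 higher and 6 lower) and 2 after median-centring, which takes out the 0.17 by which the median gene in HT29 stood above NC. It called 393 after removal of the length trend and 636 after removal of the length and GC trends. It called 0 in the 4 RPL9 siRNA and NC libraries alone, without the trend and without the cell line term, and the unadjusted p was under 0.05 for 1278, 2735 and 2074 genes. Leaving out 1 library gave 0 to 6620 calls: 6620 without the HCT116 NC library, 2182 without the HT29 NC library and 0 where any RPL siRNA library was missing (1066 to 2052 at an unadjusted p under 0.05). CPA4 lost its call in the same settings that called 0 genes. Where 1 NC library is missing, the other line alone sets the differences, and the lone NC library is assumed to vary like the other groups.

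The size rule gave 1088 genes higher and 999 lower at a difference of 0.58, 212 and 195 with a pseudocount of 5, 931 and 1200 in HCT116 alone and 3266 and 1760 in HT29 alone, the last 2 settings chosen after seeing the data. The strict rule gave 168 and 137 with a pseudocount of 5, and 219 lower with a mean of 5 RPKM or more. Against the other RPL siRNAs the count was 178 with a pseudocount of 5, 333 with a mean of 5 RPKM or more, 220 after quantile normalization and 229 after removal of the length and GC trends. It was 0 with no filter (2917 at an unadjusted p under 0.05) and with all 8 libraries in the fit, and 6 to 23 with 1 library left out. The cause of these shifts was not tested.

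RPL11 stood at 0.060 after quantile normalization, 0.15 after removal of the length trend and 0.077 after removal of the length and GC trends, against a mean of -0.19 as deposited. With 1 library left out, RPL11 ran from -0.74 to 0.36, RPL5 from -0.79 to 0.033, RPS20 from -1.14 to 0.070, RPS23 from -0.66 to 0.0097, NFKBIA from -0.086 to 0.49 and HEY1 from -3.22 to 0.040. Of 263 list medians under other settings, 254 kept their sign. The libraries were paired by cell line, a term of the fit, and the labels carry no other pairing. The number of libraries and the unknown read depth limit the precision of every value.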
